A study of Homo sapiens with 8 samples.

Results

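The 42 genes described here carry a proteasome symbol (PSMA to PSMG followed by a number) and were taken from a table of 9543 genes in HL60, an established leukaemia line of promyelocytes. Treatment lasted 72 h and was PBS (buffer alone), VC (vitamin C, after the title of the series), DZNep or VC and DZNep, here called the combination, with 2 libraries in each of the 4 groups. DZNep is an adenosine analogue that blocks S-adenosylhomocysteine hydrolase and so holds back methylation reactions. The doses are not given in the sources used here. No label says whether paired libraries were separate cultures, so p values measure the spread between libraries, which may be technical. The drug-free columns of the table are named control and were taken as PBS. Of 13 promyelocyte markers 10 were in the table, while ELANE, AZU1 and PRTN3 were not. MPO was at 2726 to 3652 units, CD33 at 263 to 370 and CTSG at 7 to 43. The lowest value of any gene in the table was 2, so a listing alone does not show expression.

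Of the 42 genes, 13 encode parts of the 20S core, 17 encode the 19S cap, 5 encode activators or an inhibitor and 6 encode assembly factors. The remaining gene, PSMC3IP, encodes a partner of the meiotic and DNA repair recombinases. It matched the symbol rule only because its name is built on that of PSMC3, so it is given apart and proteasome genes number 41. PSMA2, PSMA8, PSMB3, PSMB8, PSMB9, PSMB11 and PSMD5 were not analysed here, and GENCODE 29 lists 49 protein-coding genes that match the rule.

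The 26S proteasome is the large protease that degrades proteins tagged with ubiquitin in the cytoplasm and nucleus. Its 20S core is a barrel of stacked alpha and beta rings, with the cutting sites on the inner face of the beta rings, and the 19S cap recognises the ubiquitin chain, removes it, and unfolds and feeds the substrate through a ring of ATPases. Dedicated chaperones build the rings, other activators can replace the cap, and the transcription factor NRF1, encoded by NFE2L1, raises many subunit genes together when proteasome activity falls short. Blood cancer cells are known for their sensitivity to drugs that block the core.

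Values are normalized units, which the authors forced onto 1 common distribution in all 8 libraries (each totals 1988507 units), so they can be compared between libraries for 1 gene but not between genes. Read depth is unknown and no counting interval can be given. All 42 genes passed the filter of a mean of 10 units. Their 2 libraries of a group differed by a median of 0.0948 on the log2 scale for PBS, 0.107 for VC, 0.144 for DZNep and 0.106 for the combination. The largest gap was that of PSMB10 between the VC libraries, at 0.903. Tests were two-sided, made with limma on log2(value + 1) over 9513 genes, with Benjamini-Hochberg adjustment and a threshold of 0.05, and errors of fold changes are standard errors (SE).

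The median absolute log2 fold change of the 42 genes was 0.21 with DZNep and 0.26 with the combination against PBS, beside 0.24 and 0.27 for all genes tested. The fold change was under 1.5 for all but 2 of the 42 genes with DZNep against PBS and all but 3 with the combination against PBS. With DZNep against PBS, 7 of 42 genes (16.7%) passed the threshold, 3 higher and 4 lower, where 13.1% of all genes tested passed, 6.42% higher and 6.63% lower. With the combination against PBS, 8 of 42 passed, 4 in each direction, where 19.7% of all genes passed, 9.52% higher and 10.2% lower. With VC against PBS 0 of 42 passed in limma and 1 had an unadjusted p under 0.05, where 0% of all genes passed and 4.86% had such an unadjusted p. The share of proteasome genes called was close to the share of all genes in each of these comparisons. In bulk RNA fewer cells of a type and less RNA per cell cannot be told apart.

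Both DZNep libraries lay above both PBS libraries for 11 of 42 genes (26.2%) and below them for 16 (38.1%), where 26.8% and 25.4% of all genes did. For the combination against PBS these were 15 (35.7%) and 14 (33.3%), beside 29.3% and 27.1%, and for VC against PBS 11 and 6 (14.3%), beside 15.8% and 15.2%.

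The median log2 fold change of the 42 genes was -0.05 with DZNep, 0.02 with VC alone and 0.04 in the combination, all against PBS, beside 0.01, 0.00 and 0.01 for all genes tested. With 1 library left out these medians ran from -0.0929 to -0.00409, from -0.0145 to 0.0601 and from 0.0046 to 0.0564. The count of 7 for DZNep fell to between 0 and 4 when any 1 of the 8 libraries was left out, with 2 and 3 without PBS replicate 1 and 2, 0 and 3 without DZNep replicate 1 and 2, 3 without either VC library and 4 without either combination library. The count of 8 for the combination became 5 without PBS replicate 1, 3 without VC_DZNep replicate 1 and 1 without VC_DZNep replicate 2.

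**Figure D1:**
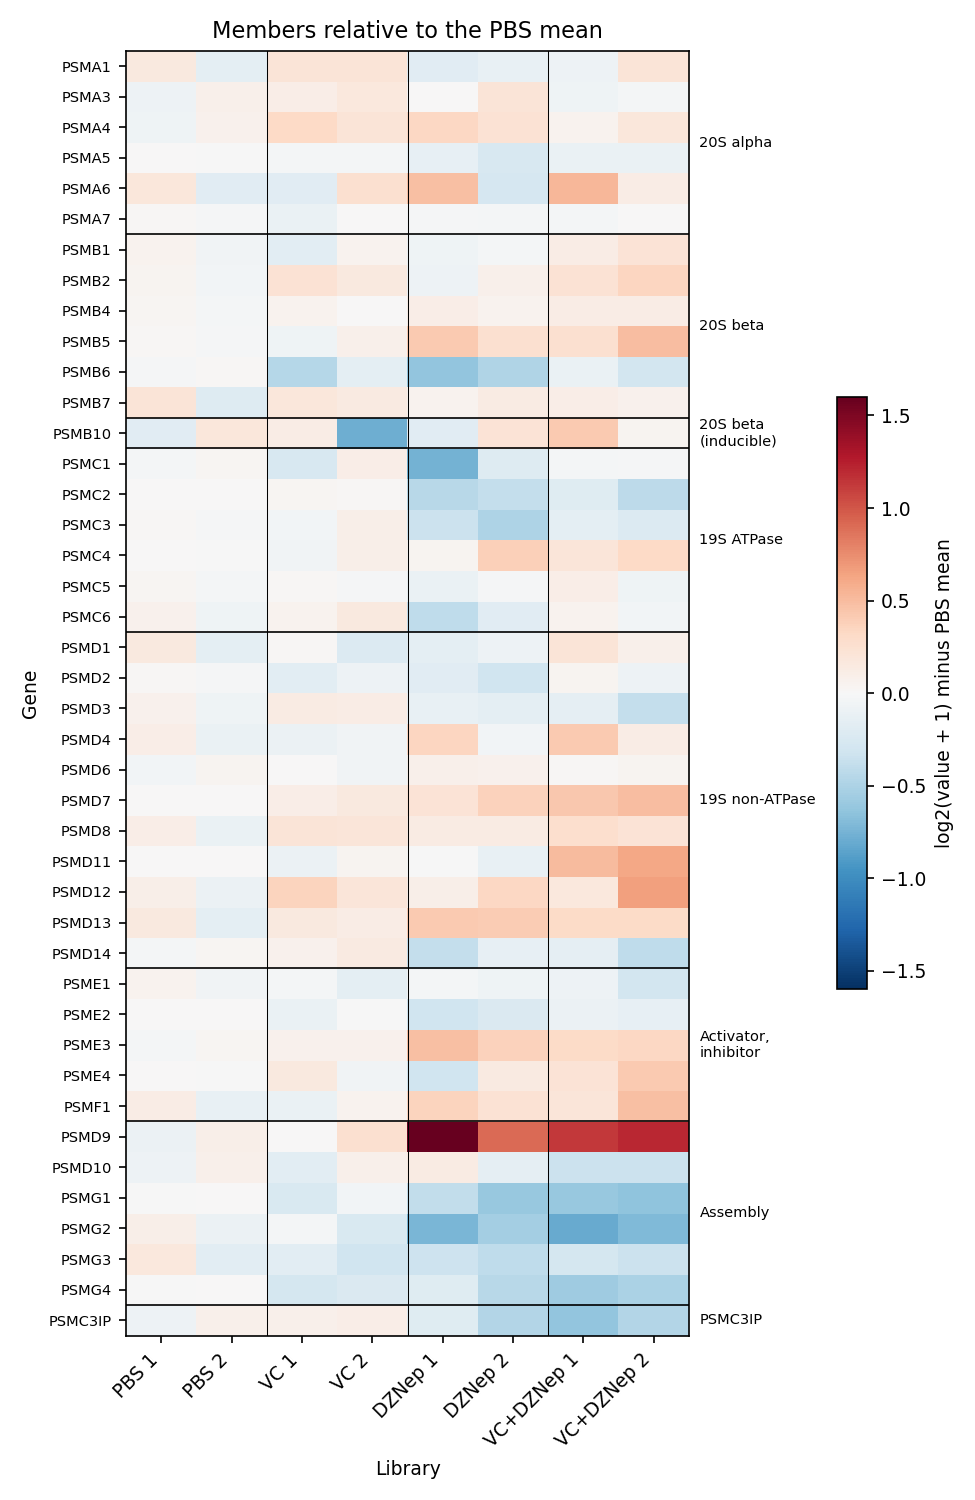
Each row is a gene and each column a library, grouped by treatment. Colour shows log2(value + 1) minus the mean of the 2 PBS libraries for that gene, red for higher and blue for lower, with horizontal lines between roles. PSMD9 is red in all 4 libraries with DZNep and PSMG1 and PSMG2 are blue there, while within the 20S core PSMB6 is blue in both DZNep libraries and PSMB10 in VC replicate 2.

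The 20S core had no gene past the limma threshold in any of the 6 comparisons. The 13 core genes gave 3 unadjusted p values under 0.05 with DZNep, 1 with VC and 2 with the combination, each against PBS, where 28.6%, 4.86% and 33.7% of all genes had one. Their median log2 fold changes in these comparisons with PBS were 0.02, 0.03 and 0.12. The 95% intervals of 13, 12 and 12 of the 13 genes lay within a 2-fold change in either direction, and those of 9 lay within 1.5-fold in each of the 3. For the combination against DZNep, the combination against VC and the interaction, the core gave 1, 1 and 2 unadjusted p values under 0.05 and medians of 0.08, 0.09 and 0.06.

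Among the alpha subunits, which form the outer rings and their gate, PSMA4 was at 292 and 322 units with PBS, 383 and 355 with VC, 386 and 361 with DZNep and 320 and 348 with the combination. Both VC and both DZNep libraries lay above both PBS libraries, while the combination overlapped PBS. The log2 fold changes were 0.27 ± 0.102 for VC (limma adjusted p = 0.954) and 0.28 ± 0.102 for DZNep (0.0936), and the combination gave 0.12 (0.436). PSMA7 ranged from 262 to 286 units over all 8 libraries, without separation of the groups. PSMA6, at 15 to 27 units, varied within groups as much as between them.

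PSMB5 and PSMB6 encode catalytic beta subunits, the chymotrypsin-like and the caspase-like one, and pointed in opposite directions with DZNep. PSMB5 was at 132 and 128 units with PBS, 124 and 138 with VC, 174 and 156 with DZNep and 156 and 184 with the combination. All 4 libraries with DZNep were above the 4 without. The log2 fold change was 0.34 ± 0.13 for DZNep (limma adjusted p = 0.112) and 0.38 ± 0.13 for the combination (0.0644), so neither passed. PSMB6 was at 68 and 70 units with PBS, 50 and 62 with VC, 44 and 49 with DZNep and 64 and 56 with the combination, where every treated library was below both PBS libraries. Its log2 fold change with DZNep was -0.56 ± 0.174 (0.0586), the smallest adjusted p of the core in that comparison. PSMB2, a structural beta subunit, was at 231 and 218 units with PBS, 264 and 250 with VC, 212 and 237 with DZNep and 264 and 284 with the combination. VC gave 0.19 ± 0.107 (0.954). PSMB7, the trypsin-like subunit, ranged from 146 to 196 units, and its PBS libraries spanned that whole range.

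PSMB10, the 1 inducible subunit in the table, takes the place of PSMB7 in the immunoproteasome, the variant form that favours peptides for antigen presentation. It was at 34 and 44 units with PBS, 42 and 22 with VC, 34 and 45 with DZNep and 52 and 40 with the combination. The groups overlapped, and the log2 fold change with DZNep was 0.02 ± 0.304 (limma adjusted p = 0.985), and with VC -0.34 ± 0.304 (0.957). Of 12 measured antigen presentation and interferon genes, 0 passed with DZNep against PBS in limma (2 with an unadjusted p under 0.05) and 1 was lower with the combination, NLRC5, an activator of class I genes (log2 fold change -0.41 ± 0.112, limma adjusted p = 0.0274). Of all genes tested, 13.1% passed with DZNep, 28.6% had such an unadjusted p there, and 10.2% passed as lower with the combination. The medians of the 12 genes were -0.03 and -0.12.

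The 19S cap had 3 of 17 genes past the threshold with DZNep, 1 higher and 2 lower, and 2 of 17 with the combination, both higher. Of all genes tested, 13.1% and 19.7% passed in these comparisons. With DZNep against PBS, 5 of 6 ATPase genes were negative and 2 of these passed, with a median log2 fold change of -0.35. With the combination against PBS, 3 of the 6 were negative and 0 passed, with a median of -0.01. Of 11 non-ATPase genes, 6 were positive and 1 passed with DZNep, with a median of 0.08. With the combination 8 were positive and 2 passed, with a median of 0.25.

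PSMC2 and PSMC3 encode ATPases of the ring that unfolds substrates. PSMC2 was at 158 units in both PBS libraries, 162 and 160 with VC, 116 and 121 with DZNep and 138 and 118 with the combination. PSMC3 was at 252 and 246 units with PBS, 242 and 266 with VC, 196 and 176 with DZNep and 223 and 214 with the combination. For both genes all 4 libraries with DZNep were below the 4 without. Both fell with DZNep, by 0.41 ± 0.121 (limma adjusted p = 0.0494) and 0.42 ± 0.108 (0.0294) on the log2 scale. With the combination against PBS the log2 fold changes were -0.31 (0.105) and -0.19 (0.254), which did not pass.

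PSMC1, another ATPase, was at 272 and 286 units with PBS, 233 and 299 with VC, 164 and 241 with DZNep and 274 and 276 with the combination. The DZNep libraries were the lowest but for VC replicate 1, and stood far apart from each other. Its DZNep value was -0.49 ± 0.173 (limma adjusted p = 0.0909), and it moved with the library left out. Without DZNep replicate 1 the value was -0.21 (0.477), without DZNep replicate 2 it was -0.76 and passed (0.0422), and with a replicate block -0.49 passed (0.0421). GENCODE 29 lists 13 pseudogenes named after PSMC1, and counting could split reads among them, so its level is uncertain. Exons of PSMC1 also overlap those of NRDE2 on the opposite strand. NRDE2 was at 188 and 182 units with PBS, 221 and 202 with VC, 146 and 190 with DZNep and 210 in both combination libraries. Its log2 fold change was -0.15 for DZNep against PBS (0.500) and 0.33 for the combination against DZNep (0.314). The PSMC2 call was lost in each case where 1 of the 8 libraries was left out (0.0528 to 0.172), and with a replicate block (0.0524). That of PSMC3 was lost without either PBS, DZNep or VC library (0.0509 to 0.155).

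PSMD11 stood out among the non-ATPase subunits. It encodes RPN6, the lid subunit that clamps the cap onto the core. PSMD11 (ENSG00000108671, chr17:32444261-32483318, plus strand, GRCh38) was at 152 units in both PBS libraries, 142 and 157 with VC, 151 and 140 with DZNep and 216 and 233 with the combination. The combination libraries were above the other 6, among which both DZNep libraries lay just below both PBS libraries and VC overlapped these groups. It rose with the combination by 0.56 ± 0.115 against PBS (limma adjusted p = 0.00777), 0.62 ± 0.115 against DZNep (0.0431) and 0.58 ± 0.115 against VC (0.00778). It was the 1 gene of the 42 called in the combination against DZNep (2.38%), where 0.673% of all genes passed and 0.263% were higher. An antisense transcript, AC005899.8, overlaps its exons and was not analysed here.

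These 3 comparisons share the combination libraries. The interaction, the step from DZNep to the combination minus the step from PBS to VC, was 0.65 ± 0.162 for PSMD11 on the log2 scale and did not pass (limma adjusted p = 0.392). In that test 0 of the 42 genes passed in limma and 5 had an unadjusted p under 0.05, where 0.0210% of all genes passed and 7.78% had such an unadjusted p. The call against DZNep was lost without each of the 8 libraries in turn (limma adjusted p 0.0533 to 0.274). The calls against PBS and against VC were lost without VC_DZNep replicate 2 (0.0667 and 0.0695), and the one against VC also without VC replicate 1 (0.0837).

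PSMD7, the partner of the cap's deubiquitinase, was at 268 units in both PBS libraries, 288 and 298 with VC, 312 and 345 with DZNep and 362 and 377 with the combination. The groups did not overlap, in that order. It rose with the combination by 0.46 ± 0.0964 against PBS (limma adjusted p = 0.00844) and 0.33 ± 0.0964 against VC (0.0421), and with DZNep alone the difference was 0.29 (0.0735). Without VC_DZNep replicate 2 the call against PBS was lost (0.0601), and the call against VC was lost without either VC or combination library (0.102 to 0.214). PSMD14, the deubiquitinase itself, had log2 fold changes of -0.26 with DZNep (0.266) and -0.28 with the combination (0.199), both against PBS.

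PSMD13, another lid subunit, was at 180 and 146 units with PBS, 180 and 176 with VC, 218 and 216 with DZNep and 201 in both combination libraries. All 4 libraries with DZNep were above the 4 without. It rose with DZNep by 0.42 ± 0.121 (limma adjusted p = 0.0465), a call lost in 7 of the 8 cases with 1 library left out, the exception being PBS replicate 1, with values of 0.0726 to 0.196. With the combination the difference was 0.31 (0.101), which became 0.46 without PBS replicate 1, past the threshold (0.0393), and 0.16 without PBS replicate 2 (0.411). The DZNep value was 0.27 without PBS replicate 2. Its exons overlap those of SIRT3 on the opposite strand, which was at 22 to 41 units with a log2 fold change of -0.59 for DZNep (0.132). PSMD3, a lid subunit as well, was at 395 and 361 units with PBS, 413 and 410 with VC, 348 and 338 with DZNep and 342 and 290 with the combination. It fell against VC by 0.38 ± 0.105 (0.0340), a call lost without either VC or DZNep library and without VC_DZNep replicate 2 (0.0564 to 0.204).

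Of the remaining cap genes none was called in any comparison. PSMD4, the ubiquitin receptor RPN10, was at 560 and 483 units with PBS and reached 660 and 698 in replicate 1 of DZNep and of the combination, where replicate 2 had 505 and 564. PSMD8, another lid subunit, had the smallest p of the cap with VC, with 222 and 192 units with PBS, 238 and 236 with VC and 0.20 ± 0.107 on the log2 scale (limma adjusted p = 0.954). PSMD6 was at 188 and 186 units with DZNep, above the other 6 libraries at 170 to 182, with a log2 fold change of 0.08 against PBS that did not pass.

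**Figure D2:**
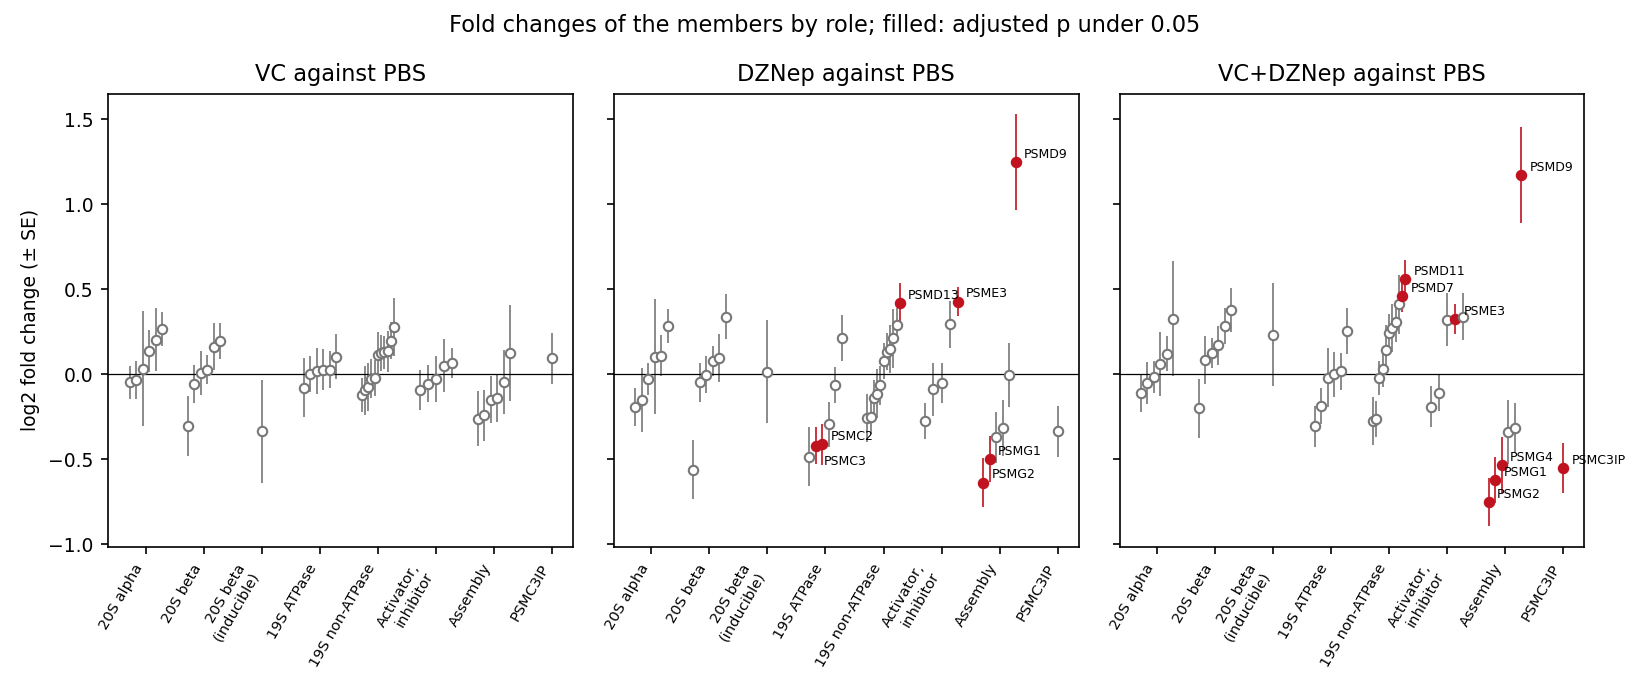
Log2 fold change of each gene against PBS, by role, for VC, DZNep and the combination. Bars are limma standard errors, and filled red points with names passed an adjusted p of 0.05. The largest change with DZNep and with the combination is that of PSMD9 (1.25 and 1.17), and no point passes with VC.

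Assembly factors held the largest rise and the largest fall among the 42 genes in DZNep against PBS and in the combination against PBS. Of 6 genes, 1 rose and 2 fell with DZNep, and 1 rose and 3 fell with the combination, against PBS, where 6.42% of all genes rose and 6.63% fell with DZNep and 9.52% and 10.2% with the combination. The median log2 fold change was -0.34 and -0.44, and 5 of 6 genes were negative in both. In the 4 libraries with DZNep the median of the 6 genes lay 0.26 to 0.452 below the PBS mean on the log2 scale, compared with 0.142 and 0.171 below it with VC.

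PSMG1 and PSMG2 encode the chaperone pair PAC1 and PAC2, which bind each other and bring alpha subunits together into a ring. They fell together. The 250 bases before the RefSeq gene start are shown for both, for PSMD9, which rose, and for PSMD11, which was called between the combination and DZNep, since NRF1 acts through a short element in such regions. The sequences are from RefSeq on GRCh38.p14, run 5′ to 3′ on the gene's strand, and use the first start listed for a gene. Capitals mark TGACNNNGC, the core of the antioxidant response element that NRF1 and NRF2 bind, and CCAAT, the NF-Y box, on either strand.
PSMG1, chr21:39183452-39183701, minus strand: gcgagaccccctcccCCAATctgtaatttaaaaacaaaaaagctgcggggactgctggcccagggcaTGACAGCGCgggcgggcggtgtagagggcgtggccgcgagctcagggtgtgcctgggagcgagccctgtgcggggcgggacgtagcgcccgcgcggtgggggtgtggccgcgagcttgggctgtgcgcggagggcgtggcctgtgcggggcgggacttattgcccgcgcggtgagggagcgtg
PSMG2, chr18:12658488-12658737, plus strand: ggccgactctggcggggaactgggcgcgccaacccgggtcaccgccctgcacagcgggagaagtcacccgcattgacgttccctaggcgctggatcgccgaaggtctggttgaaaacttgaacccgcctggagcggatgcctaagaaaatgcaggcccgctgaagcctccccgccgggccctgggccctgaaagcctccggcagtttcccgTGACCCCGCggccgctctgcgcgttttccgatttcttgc
PSMD9, chr12:121888540-121888789, plus strand: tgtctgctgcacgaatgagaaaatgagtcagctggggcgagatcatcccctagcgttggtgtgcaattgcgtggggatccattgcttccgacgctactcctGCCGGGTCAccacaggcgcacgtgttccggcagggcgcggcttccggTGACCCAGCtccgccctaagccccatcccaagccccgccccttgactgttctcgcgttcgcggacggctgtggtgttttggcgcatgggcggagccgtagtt
PSMD11, chr17:32444260-32444509, plus strand: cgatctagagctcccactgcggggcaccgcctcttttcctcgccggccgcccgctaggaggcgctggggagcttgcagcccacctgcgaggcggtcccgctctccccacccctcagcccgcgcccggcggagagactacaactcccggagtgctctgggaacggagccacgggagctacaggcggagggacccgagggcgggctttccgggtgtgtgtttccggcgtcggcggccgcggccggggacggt

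The TGACNNNGC core was found 183 to 175 bases before the start of PSMG1, 39 to 31 bases before that of PSMG2, and at 2 places in PSMD9, once on each strand. The PSMD11 window held none of these motifs. Genes that fell and a gene that rose thus both held the core. Windows of 250 bases before to 50 after the start were found for 36 of the 42 genes, and at the first start listed for each gene 10 of these 36 (27.8%) held the core on either strand, beside 15.6% of 7676 windows of genes in the table and 13.6% of 27305 windows in all, counted the same way. PSMA4 and PSMC5 held it at a later listed start only. CCAAT was in 16 (44.4%), beside 37.3% and 35.7%, and TGATGNAA, a core of the element that ATF4 binds with C/EBP proteins, was in 1 (2.78%), beside 1.63% and 3.67%. No overlap between motifs was seen in the windows shown, and a match of letters does not show binding.

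PSMG2 (ENSG00000128789, chr18:12658043-12725740, plus strand) was at 157 and 138 units with PBS, 144 and 124 with VC, 88 and 101 with DZNep and 84 and 90 with the combination. PSMG1 (ENSG00000183527, chr21:39174769-39183851, minus strand) was at 134 and 135 units with PBS, 113 and 130 with VC, 102 and 88 with DZNep and 88 and 86 with the combination. For both, the 4 libraries with DZNep were below the 4 without. PSMG2 fell by 0.64 ± 0.142 with DZNep (limma adjusted p = 0.0163), and by 0.75 ± 0.142 with the combination against PBS (0.00495). PSMG1 fell by 0.50 ± 0.136 (0.0365) and 0.62 ± 0.136 (0.0104). Against VC, the combination was lower by log2 fold changes of -0.61 for PSMG2 (0.0162) and -0.47 for PSMG1 (0.0409).

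The PSMG2 call with the combination against PBS held in all 17 alternatives (limma adjusted p 0.00206 to 0.0421). Its DZNep call was lost without PBS replicate 1 (0.0856), DZNep replicate 1 (0.107) or DZNep replicate 2 (0.0523), and its call against VC without VC replicate 1 (0.144) or either combination library (0.0927 and 0.0686). The PSMG1 call with DZNep was lost without each of the 8 libraries in turn (0.0562 to 0.183). Its call with the combination against PBS was lost without either combination library (0.0516 and 0.0654), and the one against VC without either VC or combination library (0.0941 to 0.251). Exons of PSMG2 overlap those of CEP76 on the opposite strand, and the labels do not say whether counting used strand. CEP76 was at 28 to 52 units, with a log2 fold change of 0.28 for DZNep against PBS (0.488). For the combination it was lower, as PSMG2 was, by -0.31 against PBS (0.397) and -0.49 against VC (0.199). SPIRE1, also overlapping on the opposite strand, was not analysed here.

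PSMG4, which pairs with PSMG3 in the PAC3 and PAC4 chaperone, was at 68 and 69 units with PBS, 56 and 58 with VC, 60 and 50 with DZNep and 46 and 48 with the combination. All treated libraries were below PBS, and the combination was lowest. It fell with the combination against PBS by 0.53 ± 0.164 (limma adjusted p = 0.0438). That call was lost without either PBS, VC or combination library (0.0714 to 0.143) and with a replicate block (0.0523). SLC22A23, whose exons overlap those of PSMG4 on the opposite strand, was at 13 to 28 units, with a log2 fold change of -0.58 (0.260). PSMG3 was at 129 and 102 units with PBS and 86 to 94 with DZNep or the combination, with log2 fold changes of -0.37 (0.129) and -0.32 (0.167). Its VC libraries were at 102 and 92, and VC gave -0.24 ± 0.149 (0.954). PSMD10, the chaperone gankyrin, was at 40 units in both combination libraries and 45 to 56 in the other 6, with a log2 fold change of -0.34 for the combination against PBS (0.233).

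PSMD9 encodes p27, a chaperone that joins ATPases while the base of the cap is built. PSMD9 (ENSG00000110801, chr12:121888731-121918297, plus strand) was at 14 and 16 units with PBS, 15 and 18 with VC, 47 and 29 with DZNep and 34 and 36 with the combination. All 4 libraries with DZNep were above the 4 without. It rose by 1.25 ± 0.282 with DZNep (limma adjusted p = 0.0175), by 1.17 ± 0.282 with the combination against PBS (0.0164) and by 1.05 ± 0.282 with the combination against VC (0.0319). With a pseudocount of 16 these became 0.78, 0.72 and 0.65 and all passed (0.0185, 0.0193 and 0.0343). Values this low carry coarse steps, with a median of 0.0481 and a largest of 0.138 on the log2 scale between neighbouring values from 10 to 50 units. The DZNep call was lost without PBS replicate 1 (0.0754) or DZNep replicate 1 (0.115), the call with the combination against PBS without PBS replicate 1 (0.0737) or either combination library (0.0715 and 0.0939), and that against VC without either VC or combination library (0.0951 to 0.175). Exons of PSMD9 overlap those of WDR66 on the same strand, and WDR66 was not analysed here.

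**Figure D3:**
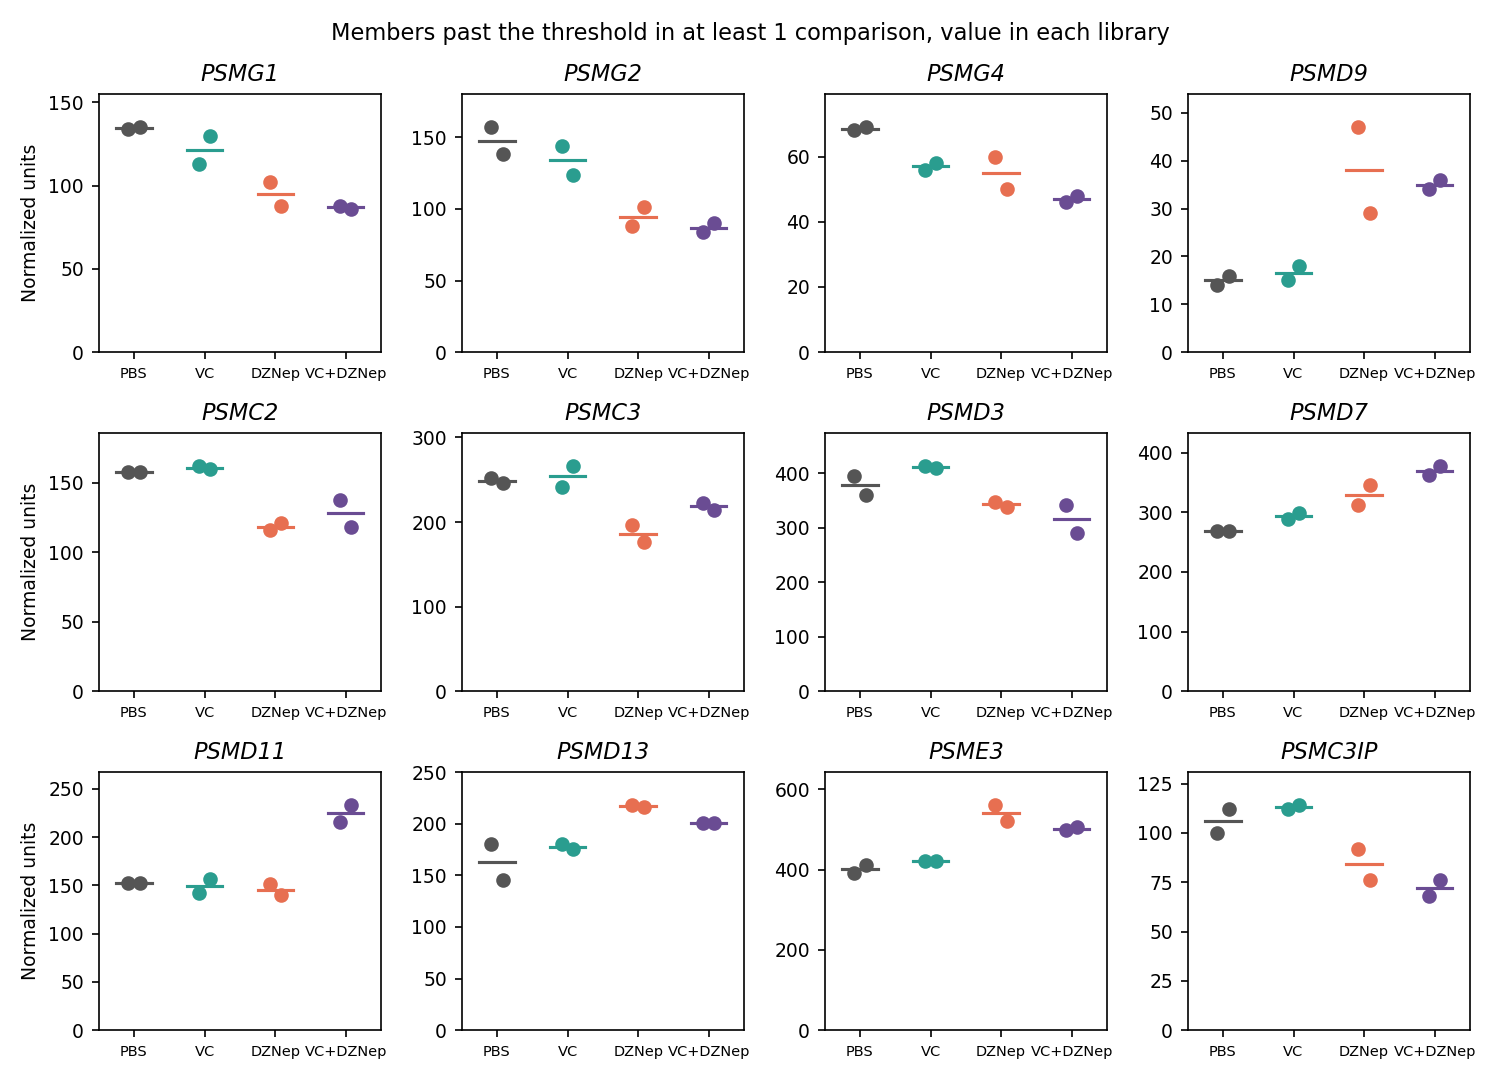
Normalized units of the 12 genes past the threshold in at least 1 comparison, from 0 on each axis. Points are libraries and bars are means of the 2 libraries of a group. PSMG1, PSMG2, PSMC2, PSMC3, PSMD3 and PSMC3IP are lower, and PSMD7, PSMD9, PSMD13 and PSME3 higher, in both groups with DZNep. PSMD11 is higher in the combination (216 and 233 units) than in the other groups.

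Among the activators and the inhibitor, PSME3 was the 1 gene called. It encodes PA28-gamma, a nuclear activator of the core that does not need ubiquitin. PSME3 was at 392 and 410 units with PBS, 420 in both VC libraries, 560 and 520 with DZNep and 498 and 506 with the combination. The 4 libraries with DZNep were above the 4 without. It rose by 0.43 ± 0.0869 with DZNep (limma adjusted p = 0.0108) and by 0.32 ± 0.0869 with the combination against PBS (0.0265). Neither call held with a constant prior variance (0.0571 and 0.0875) or on the libraries compared alone (0.0606 and 0.0783). The DZNep call was lost without DZNep replicate 1 (0.0707), and the call with the combination without PBS replicate 1 (0.0892), either VC library (0.0504 and 0.0503) or either combination library (0.0793 and 0.104).

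BECN1, an autophagy gene whose exons overlap those of PSME3 on the opposite strand, moved beside it with DZNep. BECN1 was at 135 and 178 units with PBS, 212 and 172 with VC, 216 and 231 with DZNep and 188 and 212 with the combination. Its log2 fold change with DZNep was 0.52 ± 0.155 (limma adjusted p = 0.0496), a call that was not followed under the alternatives. Without strand in the counting, reads of the 2 genes could not be told apart where they overlap.

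PSME1 and PSME2 encode the interferon-inducible activator PA28-alpha and PA28-beta, and neither was called. PSME1 was at 213 and 196 units with PBS, 200 and 183 with VC, 200 and 194 with DZNep and 193 and 166 with the combination, where the combination lay below PBS and the other groups overlapped. PSME2 was at 190 units in both PBS libraries, 177 and 189 with VC, 152 and 162 with DZNep and 178 and 174 with the combination, with log2 fold changes of -0.27 (limma adjusted p = 0.120) and -0.11 (0.513). PSMF1, the inhibitor PI31, was at 202 and 170 units with PBS, 238 and 217 with DZNep and 212 and 260 with the combination, where it lay above PBS with log2 fold changes of 0.29 (0.191) and 0.34 (0.111). PSME4, the large activator PA200, was at 157 to 219 units in the PBS, VC and DZNep libraries and 229 and 264 with the combination, which was 0.41 above DZNep (0.285).

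PSMC3IP, the recombination factor, was at 100 and 112 units with PBS, 112 and 114 with VC, 92 and 76 with DZNep and 68 and 76 with the combination. It fell with the combination by 0.55 ± 0.148 against PBS (limma adjusted p = 0.0266) and by 0.65 ± 0.148 against VC (0.0159). The first call was lost without either PBS or combination library (0.0512 to 0.135), the second without either VC or combination library (0.0558 to 0.101). Its opposite-strand neighbour MLX, with which it shares exon sequence, gave -0.35 (0.0574) and -0.34 (0.0711).

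DZNep was tested on separate libraries without VC and with it. In the combination against VC, 7 of 42 genes (16.7%) passed, 3 higher and 4 lower, where 15% of all genes passed, 6.89% higher and 8.14% lower, and 13 had an unadjusted p under 0.05, where 30.1% of all genes did. Both combination libraries lay above both VC libraries for 15 genes and below for 13 (31.0%), beside 29.9% and 28% of all genes. The genes PSMD9, PSMG1 and PSMG2 passed in both tests with the same direction, which is 42.9% of the 7 called in each. Over all genes, 718 were shared, 57.8% of those called without VC and 50.2% of those called with it. All 7 genes called without VC had the same sign with VC, as did 1191 of 1242 over all genes, and of the 42 genes 29 (69.0%) had the same sign in both, beside 73.1% of all genes. Across the 42 genes Pearson's r between both fold changes was 0.701 and Spearman's rho 0.613, and across all 9513 genes they were 0.696 and 0.637. Genes are not independent replicates, so these values describe the set.

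The count of 7 in the combination against VC became 0 without VC replicate 1 or VC_DZNep replicate 2, and 2 without VC replicate 2 or VC_DZNep replicate 1. The count of 1 against DZNep became 0 without any 1 of the 8 libraries.

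**Figure D4:**
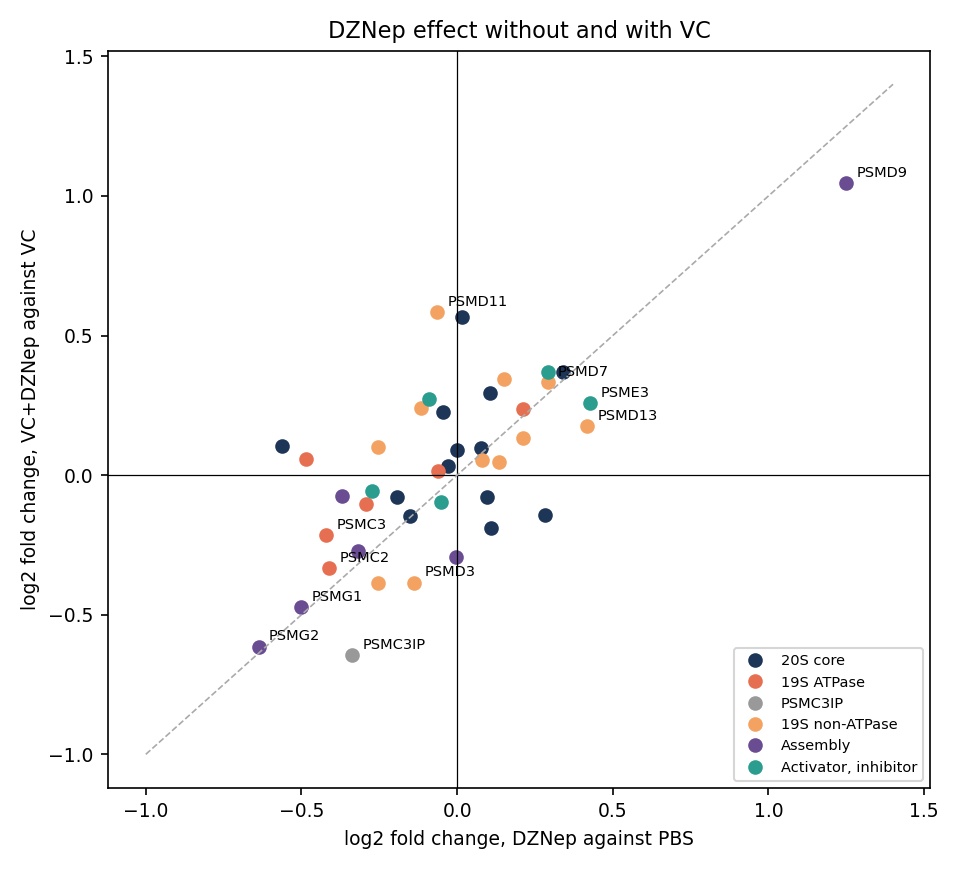
Log2 fold change with DZNep against PBS (x axis) and with the combination against VC (y axis) for the 42 genes, coloured by role. The dashed line marks equal values, and names mark genes called in at least 1 of the 2 comparisons. PSMD9 (1.25 and 1.05), PSMG1 and PSMG2 lie near the line, and PSMD11 (-0.06 and 0.58) lies off it.

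For the combination against DZNep the median log2 fold change of the 42 genes was 0.07, beside 0.00 for all genes, with no test of that median. It was 0.02 without DZNep replicate 2, 0.03 without VC_DZNep replicate 1 and up to 0.09 without any other library. Both combination libraries lay above both DZNep libraries for 16 of 42 genes (38.1%) and below for 8, where 20.6% and 20.4% of all genes did. The 6 ATPase genes were all positive, with a median of 0.17, but 0 passed in limma and 2 had an unadjusted p under 0.05, where 13.5% of all genes did. PSMC1 and PSMC6 gave 0.47 ± 0.173 and 0.29 ± 0.132 (limma adjusted p = 0.274 and 0.368), and PSMC1 gave 0.19 without DZNep replicate 1 and 0.74 without DZNep replicate 2, neither of which passed. These values and those of DZNep against PBS share the DZNep libraries.

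Other genes of the ubiquitin and proteasome system were counted from lists. Their calls were not followed under the alternatives, unlike those of the proteasome genes. Of 18 measured proteasome partners without such a symbol, 2 fell with DZNep, and 3 rose and 2 fell with the combination, against PBS. Of all genes tested, 6.42% rose and 6.63% fell with DZNep, and 9.52% rose and 10.2% fell with the combination. KIAA0368, which encodes the proteasome adaptor ECM29, had the smallest p. KIAA0368 was at 410 and 416 units with PBS, 420 and 406 with VC, 258 and 244 with DZNep and 244 and 242 with the combination, so that the 4 libraries with DZNep were far below the others. It fell by 0.72 ± 0.0915 with DZNep (limma adjusted p = 0.00114) and by 0.76 ± 0.0915 with the combination (0.000363). TXNL1, a thioredoxin-like protein of the cap, fell by 0.45 and 0.48 (0.0408 and 0.0238). With the combination BAG1, a chaperone cofactor that binds the proteasome, rose by 0.68 (0.00404) and PITHD1 by 0.48 (0.0287).

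The shuttle factors and the p97 system, which carry and extract ubiquitinated proteins, had 18 measured genes. Of these 3 fell with DZNep, and 3 rose and 3 fell with the combination, against PBS. Among all genes tested, 6.63% fell with DZNep, and 9.52% rose and 10.2% fell with the combination. VCP, the p97 ATPase, was at 455 and 463 units with PBS, 528 and 620 with DZNep and 707 in both combination libraries, and rose with the combination by 0.62 ± 0.102 on the log2 scale (limma adjusted p = 0.00238). FAF1, a p97 cofactor, fell by 0.68 (0.00304).

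Of 11 genes of the NRF1 axis, 3 fell with DZNep, and 2 rose and 1 fell with the combination, against PBS. The shares of all genes tested were 6.63% for falls with DZNep, and 9.52% and 10.2% for rises and falls with the combination. HERPUD1, a component of endoplasmic reticulum degradation, fell by 0.82 ± 0.126 and 0.90 ± 0.126 (limma adjusted p = 0.00293 and 0.000908). MAFG, which encodes a partner of NRF1, and SYVN1, a ubiquitin ligase of the same degradation route, fell with DZNep by 0.59 ± 0.129 and 0.56 ± 0.123 (0.0151 and 0.0157). NFE2L1, the gene of NRF1 itself, named for that reason after its values were seen, was at 651 and 596 units with PBS, 609 and 686 with VC, 610 and 570 with DZNep and 765 and 772 with the combination. Both combination libraries were above the other 6, and the rise against PBS was 0.30 ± 0.0929 on the log2 scale (limma adjusted p = 0.0443). DDI2, the protease that activates NRF1, rose with the combination by 0.85 ± 0.158 (0.00463) and was not called with DZNep. DDI2 and NGLY1 are also in the list of shuttle factors and the p97 system, so the rise of DDI2 is counted in both lists.

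Of 22 measured genes of ubiquitin and its conjugation, 2 rose with DZNep, and 1 rose and 2 fell with the combination, against PBS. Among all genes tested, 6.42% rose with DZNep, and 9.52% rose and 10.2% fell with the combination. UBE2L3 and UBE2D3 encode ubiquitin-conjugating enzymes. UBE2L3 rose by 0.79 ± 0.123 with DZNep (limma adjusted p = 0.00305), from 224 and 254 to 416 and 410 units, and UBE2G2 by 0.63 ± 0.107 (0.00438). UBE2D3 was at 670 to 707 units in the PBS, VC and DZNep libraries and at 506 and 456 with the combination, where it fell by 0.51 ± 0.0864 against PBS (0.00295). UBE2J1 fell by 0.39 ± 0.120 there (0.0451).

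Cell type markers differed in the same comparisons. Of 8 tested markers of mature phagocytes, 4 rose and 1 fell with DZNep against PBS, and 5 rose and 1 fell with the combination. FPR1 was at 2 units in each PBS and VC library, 11 and 18 with DZNep and 22 and 34 with the combination. S100A8 was at 4 to 7 without DZNep, 16 in both DZNep libraries and 40 and 34 with the combination. Both markers passed the filter of a mean of 10 only through the groups with DZNep, so their testing depended on being high there. Of all genes tested, 6.42% rose and 6.63% fell with DZNep, and 9.52% rose and 10.2% fell with the combination. The 9 of 15 such markers in the table summed to 815 to 817 units with PBS, 806 to 878 with VC, 958 to 1084 with DZNep and 1289 to 1345 with the combination. Of 10 promyelocyte markers 4 rose and 1, CTSG, fell in both, and they summed to 6636 to 7468, 6984 to 7460, 9953 to 11426 and 11175 to 11804 units in the same order. Such sums follow the genes with the highest units, in the promyelocyte list MPO and SRGN and in the phagocyte list CYBB and CSF3R, which moved in opposite directions with DZNep. MPO was at 3652 and 2726 units with PBS, 3114 and 3652 with VC and 3652 in each library with DZNep or the combination. SRGN was at 596 and 764 units with PBS, 728 in both VC libraries, 2166 and 3646 with DZNep and 3646 and 4260 with the combination. CYBB was at 194 and 196 units with PBS, 228 and 246 with VC, 436 and 610 with DZNep and 680 and 698 with the combination. CSF3R was at 436 and 394 units with PBS, 380 in both VC libraries, 220 and 201 with DZNep and 150 in both combination libraries. Since units cannot be compared between genes, the sums are descriptions only. Of 10 lymphoid markers 3 were in the table, summing to 33 to 37, 37 to 43, 50 to 60 and 62 to 72 units. The 1 of 10 erythroid and megakaryocyte markers, ITGA2B, was at 374 to 450, 380, 620 to 718 and 394 to 413 units, and the 1 of 10 epithelial, fibroblast and endothelial markers, PECAM1, at 26 to 33, 30 to 34, 37 to 40 and 55 to 56. No marker in the table was listed at 0, the lowest value of any gene being 2, and the part of these markers in the proteasome values was not tested.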

How the data were processed

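RNA was measured in 8 HL60 libraries, 2 per group. Alignment and counting tools named in the submitters' processing notes are HISAT2 (2.0.4) and HTSeq (0.6.0), next to SAMtools (1.3.1), DESeq (1.18.1) and the builds hg38 and GRCh38, and the sheet name adds EDASeq. The authors deposited normalized whole numbers, handled here as a score and not as read counts, since all 8 libraries hold the same sorted values. A shift shared by most genes would be removed by that step. Its settings and the annotation are not given in the sources used here.

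Genes with a mean under 10 were dropped (30), leaving 9513. With limma 3.58.1 in R 4.3.3, group means were fitted to log2(value + 1) of all 8 libraries, with a prior variance that followed mean level (prior degrees of freedom 6.46, residual 4), and 6 comparisons were adjusted by Benjamini-Hochberg over all genes. The code of the fit was also run on simulated data. That run had a pass mark for the largest changes only, so it is no check of the smaller changes described here. Alternatives changed the pseudocount, filter, scaling, prior, libraries used and replicate block, and left out each library. Single calls were followed through them for the 42 genes only, not for neighbouring or listed genes. Losses named beside a gene are those without 1 library or, where stated, under another alternative. Further calls were lost with a constant prior variance or on the compared libraries alone, and these are given as counts below. Loci are from GENCODE 29 and promoters from RefSeq. The genes and lists were chosen with earlier results of these data known. Full values are given for genes past the threshold in any comparison and for the smallest p of each role in each drug group against PBS, others of the 42 being described in ranges or to complete a role after their values were seen. From each other list up to 4 called genes with the smallest p against PBS are named. One gene that this rule would name is not reported here.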

Additional observations from a re-analysis of the deposited data

How the results depend on the processing

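With DZNep against PBS the count of called genes was 7 under pseudocounts of 4 and 16, no filter, median-of-ratios scaling and a robust prior, 6 with a filter at a mean of 50 (37 of the 42 genes tested), 2 with a constant prior variance and 0 when fitted on its own 4 libraries, where 2 residual degrees of freedom remain. Leaving out 1 library gave 0 to 4. For the combination against PBS the count of 8 became 5 on its own 4 libraries and 1 to 8 without 1 library. The count of 1 against DZNep became 0 with a constant prior variance, 0 on its own 4 libraries and 0 without any 1 library. The count of 7 against VC became 4 with a constant prior variance, 4 on its own 4 libraries and 0 to 7 without 1 library. VC against PBS and the interaction gave 0 under each alternative run, and the interaction has no fit with fewer groups. The replicate numbers were not taken as pairs, since differences between libraries 1 and 2 correlated between groups by only -0.0467 to 0.091 across genes. With a replicate block the counts were 7 for DZNep, 7 for the combination against PBS, 1 against DZNep and 7 against VC. Where 1 library was left out, the lone library of its group was assumed to vary like the others. The medians over the 42 genes moved by less than the median standard error of those genes under each alternative, and no call changed direction. Over the 42 genes, 6 comparisons and all alternatives, 117 values lost a call, 3 gained one and 4092 kept their side of the threshold. The cause was not tested where it is not the smaller number of libraries. Depth is unknown, so its part in these limits could not be measured.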
